A study of Mus musculus with 6 samples.

Results

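The 39 genes described here are the antioxidant and aldehyde detoxification genes, picked by symbol out of the 23225 genes of the count table. They comprise the regulator NRF2 (Nfe2l2) with its partner and target enzymes, the enzymes of glutathione and thioredoxin, the peroxiredoxins, peroxidases, catalase and dismutases, the glutathione transferases, enzymes that clear reactive aldehydes, ferritin, and the enzymes that supply NADPH. All 39 had a row in the table, 1 of them, Gpx4, under the spelling GPx4, and all 39 passed the filter on low counts. Their RNA was measured by sequencing in tumour-associated dendritic cells, sorted at day 23 from C57BL/6 mice bearing tumours based on ID8, with ascites as the labelled source. ID8 is an ovarian cancer line of the mouse. The XBP1-KO group (3 libraries) came from mice with a conditional deletion of XBP1 in CD11c-positive cells, and the WT group (3 libraries) from wild-type mice with the same strain background and tumour. The labels name neither the Cre line nor the age or sex of the mice, and do not say whether each library is a different animal. The p-values therefore measure only the spread between these libraries, which may be technical.

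NRF2 is a transcription factor that KEAP1 marks for degradation. Oxidants and electrophiles block KEAP1, and NRF2 then binds antioxidant response elements in the promoters of detoxifying enzymes. Peroxides of membrane lipids break down to reactive aldehydes such as 4-hydroxynonenal, which glutathione transferases, aldehyde dehydrogenases and aldo-keto reductases remove. Reactive oxygen and lipid peroxidation products are known triggers of the ER stress sensor IRE1, which activates XBP1 by splicing its mRNA.

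The core of the antioxidant response element was looked for in the members' promoters, since it is the sequence by which NRF2 finds its targets. The core TGACNNNGC, read on the opposite strand as GCNNNGTCA, was searched on both strands of windows from 250 bases before to 50 bases after the RefSeq transcription start (GRCm38.p6), which were at hand for 32 of the 39 members. It occurred in 9 of these 32 genes (28.1%) and in 14% of all 27025 genes with such a window. Counted by window, it was in 9 of the members' 42 and in 12.4% of all. The members were picked in part as known NRF2 targets, so a share above that of all genes may be built into the choice. The 7 members without a window, Hmox1, Gclc, Gsr, Prdx6, Gsta4, Aldh2 and Akr1b3, were not searched. Nqo1 was searched and had no match in its window. The core overlaps the motif of AP-1 factors, and a match is a description of letters and not a binding site. The windows below show the match in capitals with its neighbouring bases, written 5′ to 3′ in the direction of the gene, for Prdx1 and Gclm, which stood among the 6 members with the smallest p, for Srxn1 and Txnrd1 as classical NRF2 targets, and for G6pdx and Pgd, which stood lower in XBP1-KO.
Prdx1 (chr4:116685450-116685490, plus strand): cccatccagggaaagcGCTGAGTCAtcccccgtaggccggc
Gclm (chr3:122245407-122245447, plus strand): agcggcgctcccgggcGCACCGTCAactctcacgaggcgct
Srxn1 (chr2:152105536-152105573, plus strand): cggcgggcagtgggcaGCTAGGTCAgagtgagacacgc
Txnrd1 (chr10:82859098-82859138, plus strand): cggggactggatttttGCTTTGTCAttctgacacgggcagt
G6pdx (chrX:74428913-74428953, minus strand): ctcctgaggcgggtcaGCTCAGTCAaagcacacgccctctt
Pgd (chr4:149166055-149166095, minus strand): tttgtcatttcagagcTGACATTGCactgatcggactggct
The match began 133 and 134 bases before the start site in Prdx1 and Gclm, 92 bases before it in Txnrd1 and 57 bases before it in G6pdx. In Srxn1 and Pgd it lay after the start site, from position 29 and position 4. The other 3 genes with a match were Nfe2l2, Mgst1 and Sod1.

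Libraries held 26946349 to 32709100 counts. Xbp1, the targeted gene, was lower in every XBP1-KO library (30.9 to 40.4 CPM) than in every WT library (48.7 to 76.8 CPM), and just missed the threshold (adjusted p 0.0545, edgeR). Of all 15958 tested genes, 25 (0.157%) were called higher and 46 (0.288%) lower in XBP1-KO. With library size alone it was 13 higher and 12 lower, and with upper quartile scaling 23 higher and 27 lower. Of 14 dendritic cell markers 11 lay lower in XBP1-KO and none was called. The highest were Cd74 (56672 to 80024 CPM in XBP1-KO and 59850 to 99893 CPM in WT) and H2-Aa, class II genes that macrophages and B cells also express. Zbtb46, Flt3, Batf3 and Xcr1, closer to the lineage, were low, with means of 7.39, 32.5, 34.8 and 66.3 CPM in XBP1-KO. In WT these means were 8.66, 35.9, 32.6 and 102 CPM. Cd209a and Ccr7 stood above them, with means of 1378 and 254 CPM in XBP1-KO and 1632 and 288 CPM in WT. Itgax, the gene of CD11c, had 143, 161 and 133 CPM in XBP1-KO and 109, 94.3 and 106 CPM in WT. It was thus higher in every XBP1-KO library, with an adjusted p of 0.106 in edgeR. Macrophage markers, led by Lyz2 and C1qb, were also high, with a summed level of 18737 to 22631 CPM in XBP1-KO and 14849 to 25574 CPM in WT. No gene of the count table was at 0 in all libraries, so that could not set any marker apart. The markers Ighm, Ly6g, Hbb-b2, Hba-a1 and Ahsp had no row. The summed level of 14 T and NK cell markers, highest for Klrb1c and Cd2, was 262 to 399 CPM in XBP1-KO and 167 to 181 CPM in WT, with 4 called higher, among them Nkg7 and Cd3e. That of 6 B cell markers, highest for Cd79b and Ms4a1, was 345 to 502 CPM in XBP1-KO and 132 to 321 CPM in WT. That of 9 neutrophil markers, highest for Retnlg and S100a8, was 356 to 585 CPM in XBP1-KO and 127 to 333 CPM in WT. Mast cell markers, highest for Kit and Cma1, summed to 137 to 189 CPM in XBP1-KO and 114 to 178 CPM in WT, with Cma1, Tpsb2 and Cpa3 called higher of 7 tested. Kit, the largest part of that sum, lay the other way, with 56.9 to 68.6 CPM in XBP1-KO and 70.4 to 140 CPM in WT (adjusted p 0.209). Tumour and mesothelial markers, highest for Krt19 and Krt18, summed to 127 to 197 CPM in XBP1-KO and 146 to 181 CPM in WT. Red cell markers, highest for Hba-a2 and Hbb-b1, stood far above the rest in libraries XBP1-KO b (148 CPM) and WT b (140 CPM), against 14.4 to 21.6 CPM in the other 4, and the same 2 libraries lay together at one end of the second principal component.

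No member passed the test between the genotypes. With an adjusted p under 0.05 as the threshold, 0 of 39 passed edgeR's quasi-likelihood test with Benjamini-Hochberg adjustment, where 0.445% of all 15958 tested genes did. At an unadjusted p under 0.05 there were 6 members (Mgst2, GPx4, Txn1, Gclm, Prdx1 and Gsr), all higher in XBP1-KO. Of all tested genes 12.9% passed that limit and 4.59% did so with a higher level in XBP1-KO. DESeq2 called 1 member, Mgst2, where it called 3.76% of the 12866 genes to which it gave an adjusted p. The fit with no filter on low counts also called Mgst2 alone, where it called 1.09% of 23225 genes. On the deposited CPM, limma called 0. The libraries of the genotypes did not overlap for 5 members, Mgst2, GPx4, Txn1, Gclm and Nqo1, all higher in XBP1-KO, where 8.8% of all tested genes were higher without overlap and 10.4% lower without overlap.

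By the fitted fold change 29 members lay higher and 10 lower in XBP1-KO, where 56.1% of all tested genes lay higher. The median log2 fold change was 0.16 over the members and 0.057 over all tested genes. Both quantities moved with transcript length and with libraries b. The members had a median transcript length of 1553 bases against 3044 over the tested genes, and across genes, which are not independent replicates, fold change and length had a Spearman correlation of -0.206. With the trend over length removed, 24 members lay higher, with a median of 0.093 against 0.019 over all genes. Without libraries XBP1-KO b and WT b, 21 lay higher and 18 lower, with a median of 0.067 against 0.039, and 0 passed. These are bulk samples, in which fewer cells of a type and less RNA per cell cannot be told apart.

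**Figure D1:**
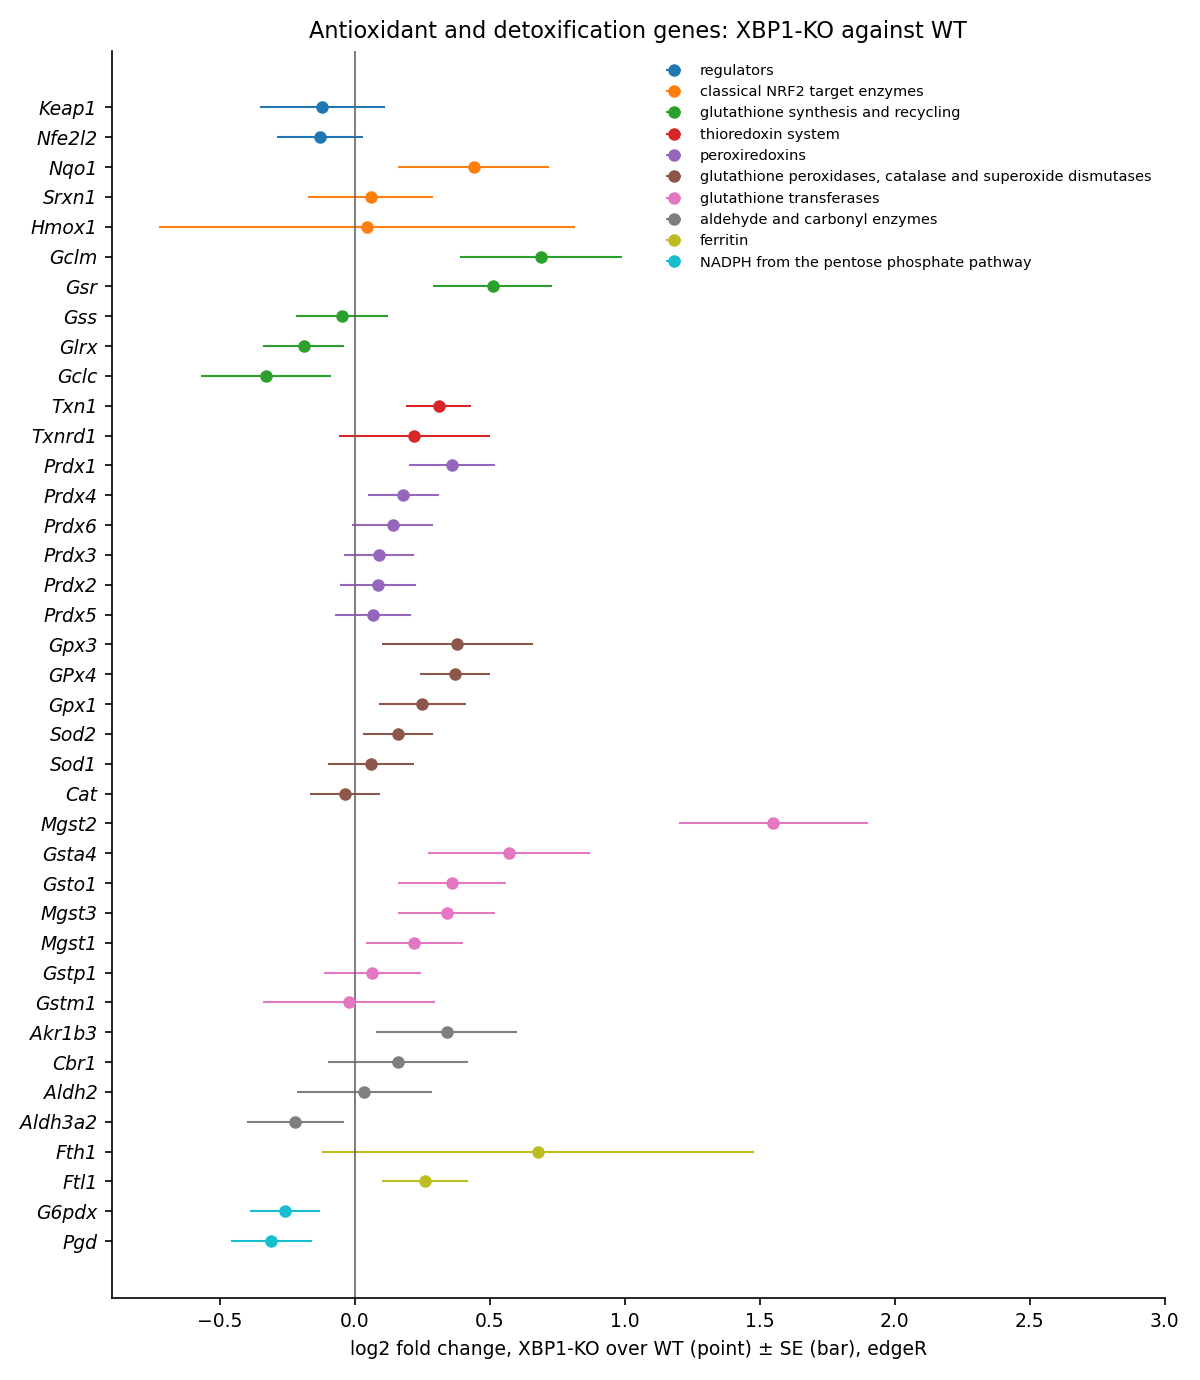
Fold change of the 39 members between the genotypes, on the log2 scale, XBP1-KO over WT (points), with its standard error (bars), coloured by role. Most points lie near 0, Mgst2 stands apart at 1.55, and Hmox1 and Fth1 have the widest bars.

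The members spanned 4 orders of magnitude of transcript level. Per length, Ftl1, the light chain of ferritin, stood first with a mean over the 6 libraries of 10496 CPM per kilobase. As a share of unnormalised counts, it alone took 1.04% to 1.32% in XBP1-KO libraries and 0.808% to 1.02% in WT libraries. These shares do not overlap, but with TMM scaling WT a (10627 CPM) lay above XBP1-KO a (10529 CPM) and c (10098 CPM). Gpx1, a glutathione peroxidase of the cytosol, followed at 2384 CPM per kilobase. Fth1, the ferritin heavy chain, Prdx1 and Gstm1 came next at 833, 792 and 678 CPM per kilobase, an order that their spread does not settle. The genes for the making of glutathione stood low, with 12.4 CPM per kilobase for Gss, 2.85 for Gclc and 0.792 for Gclm, and so did the classical NRF2 target Nqo1 at 2.19. Nfe2l2 itself was at 91.3 CPM per kilobase and Keap1 at 3.17. All 39 members together took 2.15% to 2.38% of the unnormalised counts in XBP1-KO libraries and 1.67% to 1.92% in WT libraries, ranges that do not overlap. With TMM scaling the sums were 20545 to 22779 CPM in XBP1-KO and 17080 to 20038 CPM in WT. Of all single tested genes, 8.8% were likewise higher in XBP1-KO without overlap. Ftl1 alone made up the largest part of the members' sum. The median over the members of each one's log2 CPM, taken from its mean over the libraries, was 0.10, 0.025 and 0.033 in XBP1-KO a, b and c and 0.026, -0.16 and -0.048 in WT a, b and c, which overlap through WT a. The longest annotated transcript was used as the length, which lowers the value of genes whose cells use a shorter form, so small steps in this order carry no weight.

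**Figure D2:**
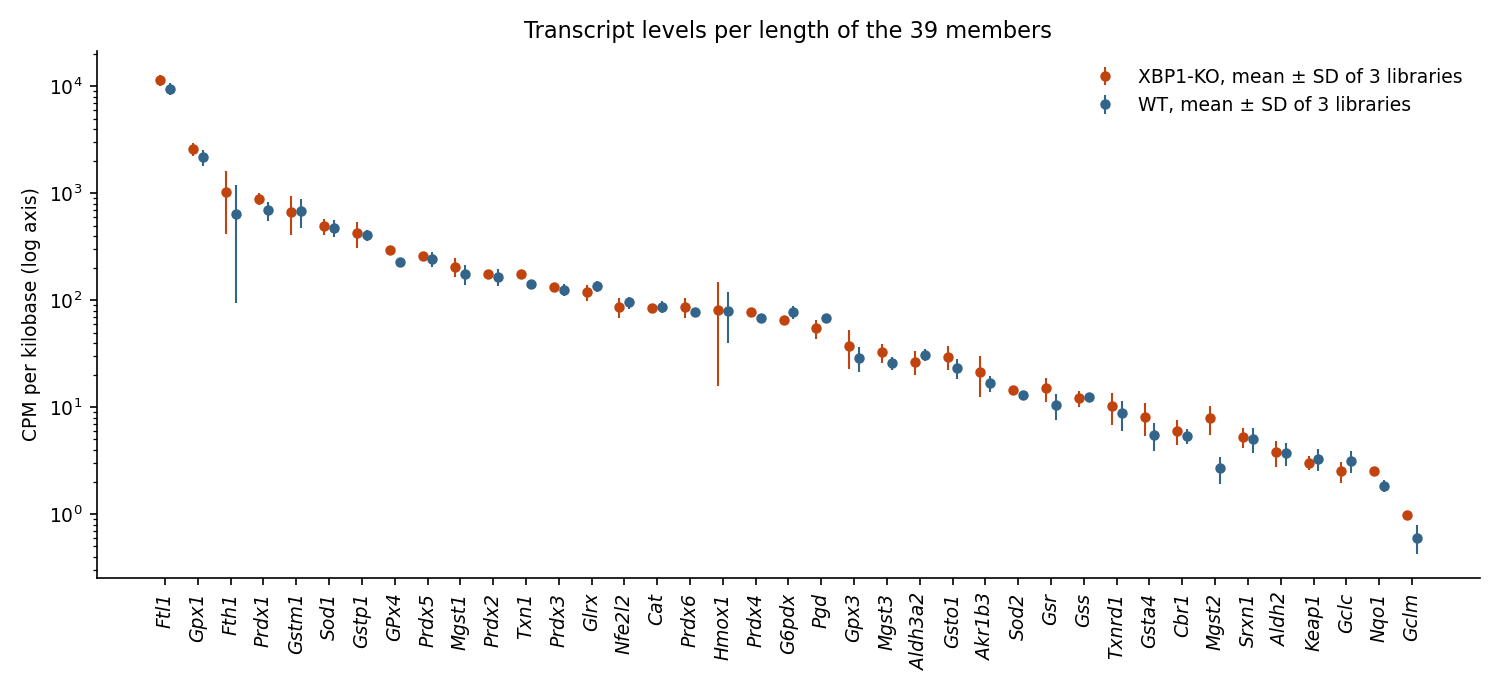
Level of each member in CPM per kilobase of transcript on a log axis, as the mean and SD of 3 libraries for XBP1-KO and for WT. Ftl1 stands above all others, most pairs of points overlap within their bars, and Mgst2, GPx4, Txn1, Nqo1 and Gclm show a gap between the genotypes.

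Neither regulator passed the test. Nfe2l2 had 178, 266 and 204 CPM in XBP1-KO libraries a, b and c, against 207, 269 and 233 CPM in WT libraries a, b and c. The ranges overlapped over most of their width, and the b library was the highest of each genotype. The log2 fold change was -0.13 (SE 0.16, adjusted p 0.761). Keap1, the adaptor that holds NRF2 low, had 9.63 ± 1.42 CPM in XBP1-KO and 10.5 ± 2.44 CPM in WT (SD, n = 3 each).

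Among the classical NRF2 targets, Hmox1, the inducible heme oxygenase that opens the heme ring and frees its iron, had 56.9, 247 and 80.6 CPM in XBP1-KO a, b and c, against 134, 180 and 58.3 CPM in WT a, b and c. Its level differed 4.33-fold between the highest and the lowest library, and the highest library of either genotype was b. Hba-a2, the alpha chain of haemoglobin, had 9.33, 92.6 and 12.2 CPM in XBP1-KO and 9.54, 82.5 and 8.75 CPM in WT, so the b libraries stood out for both genes, while WT a was high for Hmox1 only. The part of red cell material in the level of Hmox1 was not tested. Its log2 fold change was 0.045 (SE 0.77, adjusted p 0.983), and it was -0.50 (SE 0.35) without both b libraries. Nqo1, a quinone reductase often used as a readout of NRF2, had 4.03, 3.98 and 3.73 CPM in XBP1-KO and 2.9, 3.22 and 2.5 CPM in WT. The groups did not overlap, yet the level was low and the adjusted p was 0.55. Srxn1, sulfiredoxin, which repairs overoxidised peroxiredoxins, had 14.9 ± 3.25 CPM in XBP1-KO and 14.3 ± 3.79 CPM in WT (SD, n = 3 each).

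**Figure D3:**
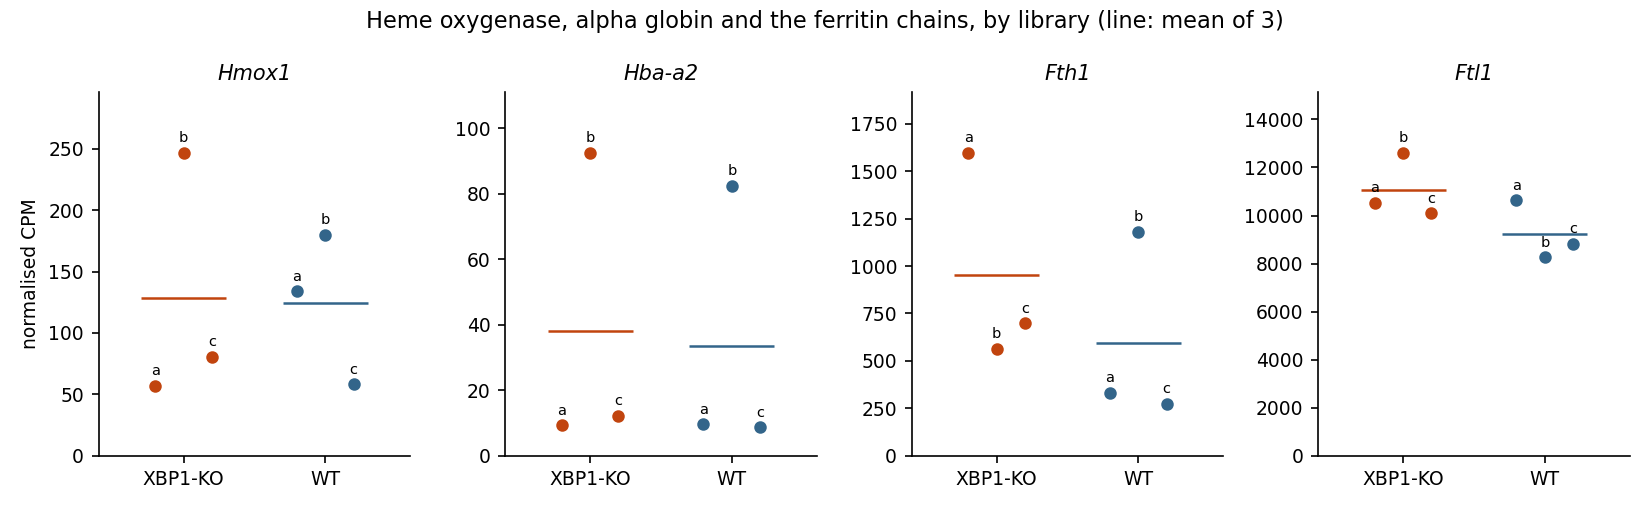
Normalised CPM of Hmox1, Hba-a2, Fth1 and Ftl1 in each library (points, with the library's letter) and the mean of each genotype (lines), each panel on its own axis from 0. Libraries b of both genotypes are the highest for Hmox1 and Hba-a2, while Fth1 is highest in XBP1-KO a and WT b.

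Glutathione is made by glutamate-cysteine ligase, a dimer of Gclc (catalytic) and Gclm (modifier), and by glutathione synthetase (Gss), and its oxidised form is recycled by glutathione reductase (Gsr). Gclm had 4.83, 5.63 and 5.95 CPM in XBP1-KO, against 4.17, 3.75 and 2.24 CPM in WT. Every XBP1-KO library was above every WT library, with a log2 fold change of 0.69 (SE 0.30, adjusted p 0.347). Gclc, its catalytic partner, leaned the other way, with 8.66 ± 1.94 CPM in XBP1-KO and 10.9 ± 2.54 CPM in WT (SD, n = 3 each) and an adjusted p of 0.6. Gsr had 31.5, 50.9 and 37.6 CPM in XBP1-KO and 28.8, 35.4 and 20.3 CPM in WT, which overlap through XBP1-KO a and WT b, with a log2 fold change of 0.51 (SE 0.22, adjusted p 0.366). Glrx, glutaredoxin, which uses glutathione to reduce protein disulfides, had 192, 151 and 137 CPM in XBP1-KO and 196, 157 and 193 CPM in WT, a log2 fold change of -0.19 (SE 0.15, adjusted p 0.633). Gss had 23.8 ± 4.14 CPM in XBP1-KO and 24.6 ± 1.54 CPM in WT (SD, n = 3 each).

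Thioredoxin (Txn1) reduces the peroxiredoxins and is itself reduced by thioredoxin reductase (Txnrd1), a selenoprotein. Txn1 had 189, 197 and 174 CPM in XBP1-KO and 162, 147 and 142 CPM in WT. The groups did not overlap, with a log2 fold change of 0.31 (SE 0.12, adjusted p 0.29), and one of 0.16 with the trend over length removed. Txnrd1 varied more, with 37 ± 11.9 CPM in XBP1-KO and 31.9 ± 10 CPM in WT (SD, n = 3 each). Of the 6 peroxiredoxins, which break down hydrogen peroxide, all lay higher by the fitted value and none passed, and without libraries b Prdx2, Prdx3, Prdx5 and Prdx6 were among the 10 members whose fitted sign changed. Prdx1, the most abundant of them, had 1842, 2323 and 1965 CPM in XBP1-KO and 1950, 1449 and 1371 CPM in WT. WT a lay above XBP1-KO a, and the log2 fold change was 0.36 (SE 0.16, adjusted p 0.366), and 0.18 without libraries b. Prdx4, the peroxiredoxin of the ER lumen, had 76.7 ± 6.64 CPM in XBP1-KO and 67.7 ± 4.31 CPM in WT (SD, n = 3 each). Prdx3, the mitochondrial form, had 196 ± 7.03 CPM in XBP1-KO and 184 ± 23.2 CPM in WT, and the remaining members Prdx2, Prdx5 and Prdx6 had adjusted p-values of 0.836, 0.873 and 0.724.

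**Figure D4:**
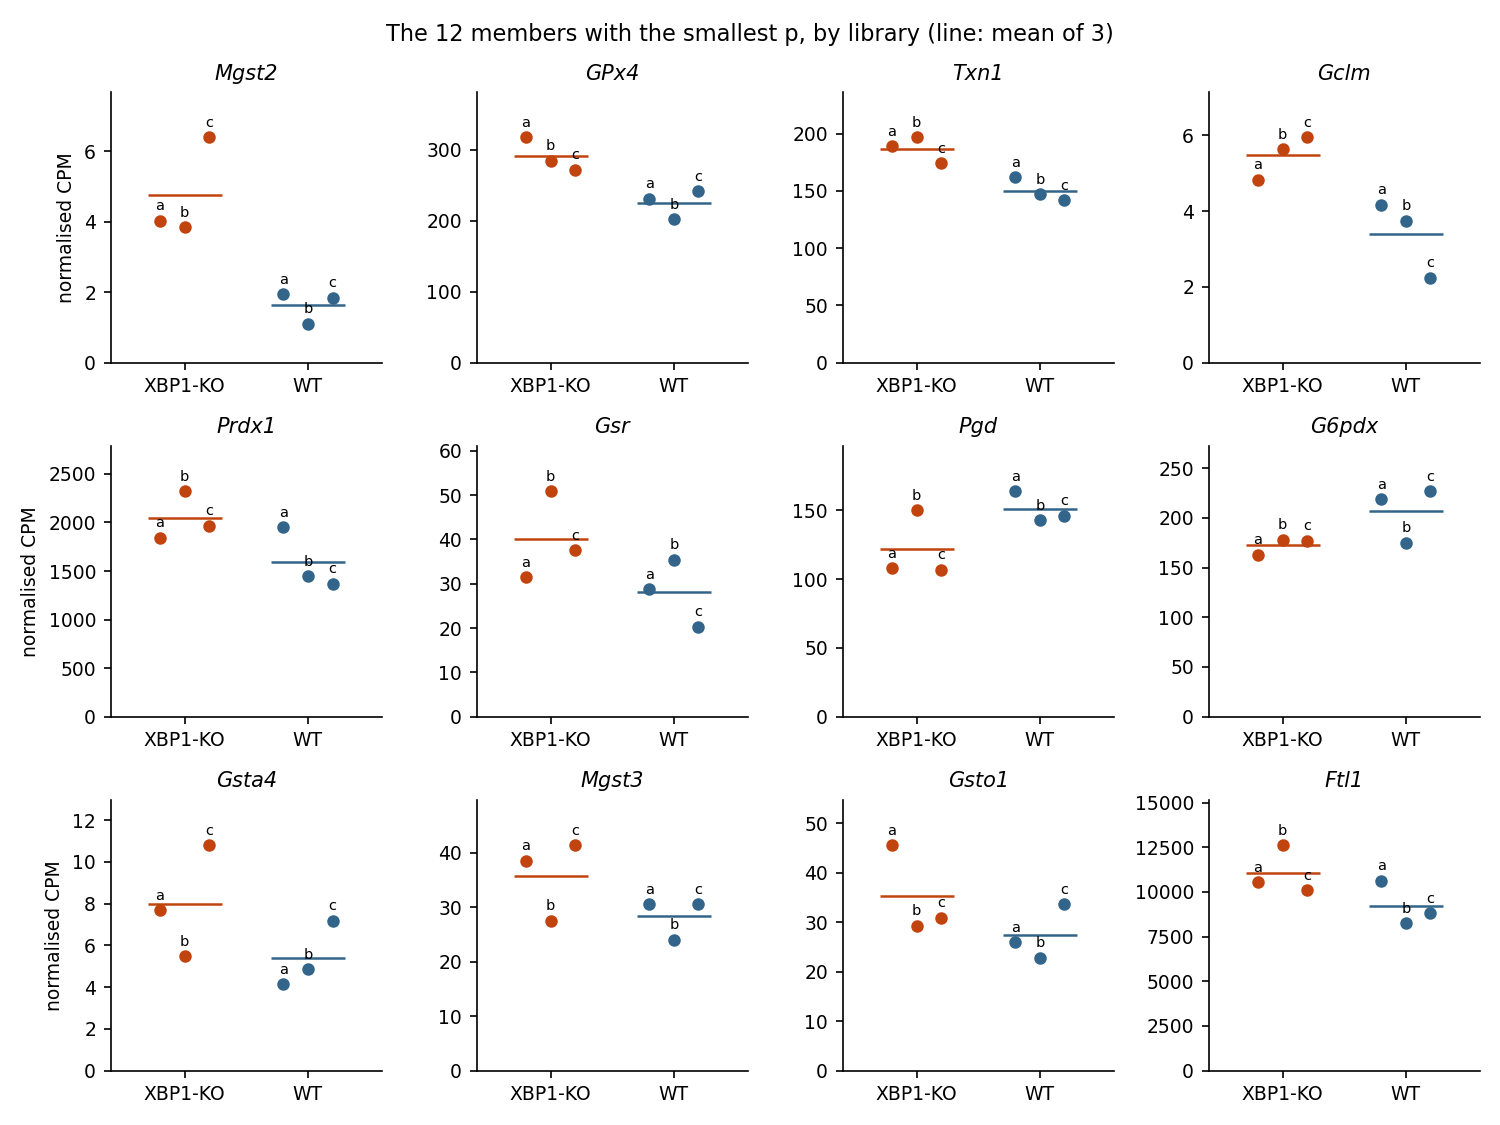
Normalised CPM in each library (points, with the library's letter) and the mean of each genotype (lines) for the 12 members with the smallest p, each panel on its own axis from 0. Mgst2, GPx4, Txn1 and Gclm show no overlap between the genotypes, and the other 8 do.

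The glutathione peroxidases reduce peroxides with glutathione, and GPx4 is the one that acts on lipid peroxides within membranes and so guards against ferroptosis. GPx4 had 318, 285 and 272 CPM in XBP1-KO, against 231, 202 and 242 CPM in WT. Every XBP1-KO library lay above every WT library, by 1.3-fold in the fit (log2 fold change 0.37, SE 0.13), and the adjusted p was 0.219. With the trend over transcript length removed, the log2 fold change was 0.21 (SE 0.10, adjusted p 0.445). Gpx1, the most abundant enzyme of the list, had 3215, 2432 and 2682 CPM in XBP1-KO and 2253, 1998 and 2757 CPM in WT. Here WT c exceeded 2 of the XBP1-KO libraries, and the log2 fold change of 0.25 (SE 0.16) had an adjusted p of 0.551. It was 0.093 with the trend over length removed, 0.12 without WT b and 0.13 without XBP1-KO a. Gpx3, the secreted form, had 59.9 ± 23.6 CPM in XBP1-KO and 46 ± 11.7 CPM in WT (SD, n = 3 each). Catalase (Cat), which splits hydrogen peroxide in peroxisomes, shared with Prdx3 the narrowest range over the libraries (1.29-fold), with 222 ± 8.62 CPM in XBP1-KO and 228 ± 30.4 CPM in WT. The superoxide dismutases of cytosol and mitochondria, Sod1 and Sod2, had 317 ± 55.5 and 85 ± 7.25 CPM in XBP1-KO, against 305 ± 53.1 and 76.3 ± 6.63 CPM in WT.

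The glutathione transferases, which couple glutathione to electrophiles, held the widest difference between the genotypes. Mgst2, a microsomal transferase that also makes leukotriene C4, had 4.03, 3.85 and 6.4 CPM in XBP1-KO, from 110, 114 and 211 counts, against 1.94, 1.1 and 1.84 CPM in WT, from 55, 31 and 55 counts. The groups were well apart, with a fitted ratio of 2.92 (log2 fold change 1.55, SE 0.35), and the adjusted p of 0.0771 did not pass. It passed with DESeq2 (0.00457) and with no filter on low counts (0.029), and over all 15 alternatives the adjusted p ran from 0.00457 to 0.278. Its counts were 1.8% to 2.15% of those of Mgst1 in XBP1-KO libraries and 0.695% to 0.821% in WT libraries. These ranges do not overlap, but they rest on the same Mgst2 counts and add no separate support. The summed T and NK cell, B cell and neutrophil markers were likewise higher in every XBP1-KO library than in every WT library. Among the XBP1-KO libraries Mgst2 was highest in c, which had the lowest T and NK sum (262 CPM) and the highest B cell, neutrophil and mast cell sums (502, 585 and 189 CPM). The part of these cells in the level of Mgst2 was not tested.

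Mgst1, the main microsomal form, had 241 ± 49.3 CPM in XBP1-KO and 207 ± 42.7 CPM in WT (SD, n = 3 each). Mgst3 had 38.5, 27.5 and 41.4 CPM in XBP1-KO and 30.6, 24 and 30.5 CPM in WT, a log2 fold change of 0.34 (SE 0.18, adjusted p 0.465). Gsta4, the transferase with the strongest known preference for 4-hydroxynonenal, was low, with 7.69, 5.47 and 10.8 CPM in XBP1-KO and 4.13, 4.85 and 7.18 CPM in WT. The groups overlapped, and the log2 fold change was 0.57 (SE 0.30, adjusted p 0.462). Gsto1, which reduces dehydroascorbate, had 45.6, 29.3 and 30.9 CPM in XBP1-KO and 26, 22.8 and 33.7 CPM in WT, a log2 fold change of 0.36 (SE 0.20, adjusted p 0.494). Gstm1 was the most abundant transferase and varied within each genotype, with 746, 605 and 1250 CPM in XBP1-KO and 881, 616 and 1144 CPM in WT. The c libraries were highest and the b libraries lowest in both, and the log2 fold change was -0.022 (SE 0.32, adjusted p 0.98). Its near copy Gstm2 showed the same order, with 459, 319 and 828 CPM in XBP1-KO and 537, 367 and 659 CPM in WT, and reads of the pair may have been split between them. Gstp1 had 350 ± 97.4 CPM in XBP1-KO and 335 ± 40.1 CPM in WT, and its near copy Gstp2 had 9.52 ± 2.12 CPM in XBP1-KO and 10.1 ± 1.99 CPM in WT.

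None of the 4 aldehyde and carbonyl enzymes passed, with adjusted p-values of 0.615 to 0.964. Aldh3a2, the microsomal dehydrogenase of long-chain fatty aldehydes, had 68.2, 72.4 and 106 CPM in XBP1-KO and 82.3, 97.6 and 107 CPM in WT. The groups overlapped through XBP1-KO c, and the log2 fold change was -0.22 (SE 0.18, adjusted p 0.633). Aldh2, the mitochondrial enzyme that clears acetaldehyde and 4-hydroxynonenal, had 14.8 ± 4 CPM in XBP1-KO and 14.4 ± 3.59 CPM in WT (SD, n = 3 each). Akr1b3, aldose reductase, had 43.3 CPM in XBP1-KO a and 18.8 to 26.1 CPM in the other 5 libraries. Cbr1, a carbonyl reductase, had 7.43 ± 2 CPM in XBP1-KO and 6.65 ± 1.02 CPM in WT.

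Ferritin stores iron in a shell of heavy (Fth1) and light (Ftl1) chains. Ftl1 had 10529, 12619 and 10098 CPM in XBP1-KO, against 10627, 8263 and 8825 CPM in WT. WT a lay inside the XBP1-KO range, and the log2 fold change was 0.26 (SE 0.16, adjusted p 0.519), 0.10 with the trend over length removed and 0.067 without libraries b. Fth1 was the most uneven member, with 1598, 564 and 699 CPM in XBP1-KO and 331, 1180 and 273 CPM in WT, a 5.86-fold range over the libraries. XBP1-KO a and WT b stood above the other 4, so the genotypes overlapped, and the log2 fold change was 0.68 (SE 0.80, adjusted p 0.77). The value rested on single libraries: it was 0.086 (SE 0.83) without XBP1-KO a, 1.63 (SE 0.51) without WT b, and 0.39 and 0.34 without WT a and without WT c. Without both b libraries the genotypes did not overlap, and the log2 fold change was 1.91 (SE 0.39, adjusted p 0.114). Per 100 counts of Ftl1 there were 15.2, 4.47 and 6.93 of Fth1 in XBP1-KO a, b and c and 3.12, 14.3 and 3.09 in WT a, b and c. Fth1 was described in full after its values were seen. Both ferritin genes have processed pseudogenes of like sequence in the mouse genome, so their counts depend on how the authors' counting treated shared reads.

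The oxidative branch of the pentose phosphate pathway makes NADPH, which Gsr and Txnrd1 spend. G6pdx, its first enzyme, had 163, 178 and 177 CPM in XBP1-KO and 219, 175 and 227 CPM in WT. WT b alone reached into the XBP1-KO range, and the log2 fold change was -0.26 (SE 0.13, adjusted p 0.441). Pgd, the second NADPH-making enzyme, had 108, 150 and 107 CPM in XBP1-KO and 164, 143 and 146 CPM in WT. XBP1-KO b lay among the WT libraries, and the log2 fold change was -0.31 (SE 0.15, adjusted p 0.415). Both genes stayed lower in XBP1-KO in all 15 alternatives, with log2 fold changes of -0.41 to -0.17 for G6pdx and -0.55 to -0.22 for Pgd, and neither passed in any of them.

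The members varied among themselves in how steady they were. The ratio of the highest to the lowest library had a median of 1.61 over the members and 1.8 over all tested genes. It lay under 1.5 for 11 members and over 2 for 10.

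Around these members, 119 other genes of the pathway in 10 lists were read from the same fit. Of the 117 tested, 63 lay higher and 54 lower, with a median log2 fold change of 0.007, and 1 was called, against 0.445% of all tested genes. The lists were chosen with earlier results of these data known, so this count is a description only. The called gene was Alox15, a lipoxygenase that adds oxygen to polyunsaturated fatty acids in membranes and so makes the lipid peroxides that GPx4 removes. It had 554, 813 and 586 CPM in XBP1-KO and 325, 306 and 278 CPM in WT, a log2 fold change of 1.10 (SE 0.16, adjusted p 0.0142). Leaving out WT b or WT c ended the call, with adjusted p-values of 0.0512 and 0.121.

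In the other 9 lists no gene passed in the edgeR fit described so far, and the gene with the smallest p of each is given. With no filter on low counts, edgeR called 6 genes of all 10 lists, where it called 1.09% of all genes. DESeq2 called 8, where it called 3.76% of the genes to which it gave an adjusted p. Both added Anpep, Tkt, Aco1, Blvrb and Nnt to Alox15, and DESeq2 also Aldh9a1 and Marco. Blvrb, a biliverdin reductase, and Nnt, a mitochondrial source of NADPH, are named here after their values were seen. Blvrb was higher in XBP1-KO, with 121, 157 and 117 CPM against 98.9, 85.7 and 69.8 CPM in WT (adjusted p 0.104 in edgeR). Nnt was lower, with 80, 82.5 and 76.8 CPM in XBP1-KO and 107, 128 and 111 CPM in WT (adjusted p 0.0877 in edgeR). Tkt, transketolase of the pentose phosphate pathway, had 125, 127 and 110 CPM in XBP1-KO and 164, 188 and 193 CPM in WT, without overlap, and an adjusted p of 0.0624. Of the 12 genes in that list of NADPH sources 6 lay higher and 6 lower. Aco1, an aconitase that becomes an iron-sensing RNA-binding protein when it loses its iron-sulfur cluster, had 88.7, 85.5 and 85 CPM in XBP1-KO and 124, 113 and 146 CPM in WT, with an adjusted p of 0.0845. Of the 15 iron and heme genes 10 lay lower. Anpep, an aminopeptidase of the cell surface that takes part in glutathione breakdown, had 149, 135 and 138 CPM in XBP1-KO and 176, 252 and 251 CPM in WT, with an adjusted p of 0.0684. Of the 12 other glutathione genes tested 7 lay higher. Aldh9a1, a dehydrogenase of aminoaldehydes, had 155, 149 and 157 CPM in XBP1-KO and 194, 208 and 222 CPM in WT, with an adjusted p of 0.121 in edgeR. Of the 21 other aldehyde and carbonyl enzymes 11 lay higher and 10 lower. Marco, a scavenger receptor of macrophages known as an NRF2 target, had 20.8, 37.7 and 26.5 CPM in XBP1-KO and 14.8, 17.1 and 7.08 CPM in WT, with an adjusted p of 0.181 in edgeR. Of the 10 other NRF2 targets 3 lay higher and 7 lower. The adjusted p with no filter was 0.0236 for Tkt, 0.0401 for Aco1 and 0.0133 for Anpep, and that of DESeq2 was 0.00613, 0.0167 and 0.00477 for the same genes, 0.0466 for Aldh9a1 and 0.00862 for Marco. Anpep also passed without WT a (0.0305).

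Msrb2, a methionine sulfoxide reductase of mitochondria, had 19.2, 19.3 and 22.4 CPM in XBP1-KO and 11.8, 13.4 and 17.8 CPM in WT, with an adjusted p of 0.289, and 8 of the 10 genes of its list lay higher. Gstm5, among 10 other glutathione transferases of which 7 lay higher, had an adjusted p of 0.501, and Rbx1, a subunit of the ligase that KEAP1 serves, one of 0.558 among 10 other regulators of which 7 lay higher. The phagocyte oxidase, the enzyme complex by which myeloid cells make superoxide, was the list with the narrowest spread: its 8 genes had log2 fold changes between -0.11 and 0.15. Cybb, its catalytic subunit, had 949, 1072 and 1010 CPM in XBP1-KO and 1169, 979 and 1114 CPM in WT, with an adjusted p of 0.764.

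**Figure D5:**
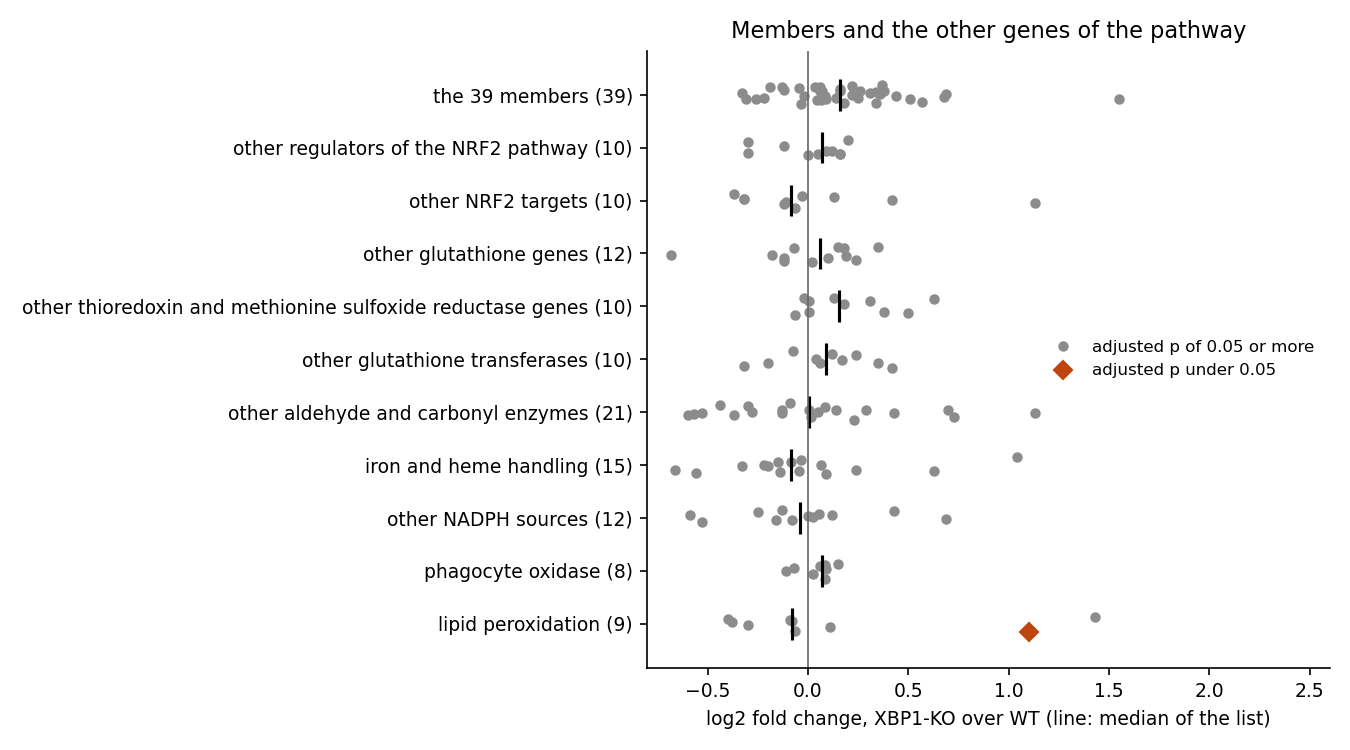
Log2 fold change, XBP1-KO over WT, of the 39 members and of the 117 tested genes of the 10 other pathway lists (points), with the median of each list (lines) and the number of genes in brackets. Alox15, the diamond among the lipid peroxidation genes, is the only one of these genes that passed with edgeR, and the phagocyte oxidase genes lie closest together.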

How the data were processed

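RNA-seq counts of tumour dendritic cells were analysed as deposited: the deposited table gives, for 6 libraries, a whole number of counts per gene symbol (23225 symbols, not normalised). The submitters' processing notes name RSEM, edgeR and the mouse build mm9 without versions or roles; no source used here gives the aligner, the annotation or the strand setting, or says how RSEM's estimates became whole numbers. The second deposited table holds CPM, each value the count over the library total, for 13946 genes. Columns name the genotype without a replicate number, so libraries are called a, b and c in column order and pair nothing.

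For the comparison of genotypes, edgeR 4.0.16 (R 4.3.3) was run over the 15958 genes kept by filterByExpr, with TMM scaling, glmQLFit with robust estimation and the two-sided quasi-likelihood F test. All p-values were adjusted by Benjamini-Hochberg across every tested gene, and a gene was called under 0.05. SE is the log2 fold change over the square root of F. CPM in the text is TMM-normalised, with the SD over 3 libraries. The common biological coefficient of variation was 0.25. Libraries of a genotype differed beyond sampling noise (chi-square over its degrees of freedom 22.5 to 74.5, genes with 20 or more counts). Alternatives were DESeq2 1.42.0, other scalings and filters, limma 3.58.1 on log2(deposited CPM + 1) or + 0.1, each library left out, libraries b left out, and removal of a trend over transcript length. The fit was tested on simulated data.

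The members and gene lists were chosen with earlier results of these data known. Of 39 member symbols 38 matched exactly, and Gpx4 matched the row spelled GPx4. Values are given in full for the 12 members with the smallest p and for the member with the highest CPM of each role. In each list of other pathway genes the rule took up to 3 called members or otherwise the one with the smallest p, and in each marker list the 2 with the highest CPM and up to 2 called. Levels per length use the longest GENCODE M21 transcript (GRCm38, another build than that of the counts) with a RefSeq accession. The same lengths serve the trend over length. Older symbols were matched for Msrb1 (Sepx1) and others, which placed all 119 other pathway genes and 79 of 84 marker genes. Promoters come from RefSeq.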

Additional observations from a re-analysis of the deposited data

How the results depend on the processing

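No paired analysis was possible because the columns of the tables carry no replicate number. Over 15 alternatives the count of called members was 0 in 13 and 1, Mgst2, with DESeq2 and with no filter on low counts. The number of called genes over the whole table was 71, and it was 484 with DESeq2, 252 with no filter, 25 with library size alone, 31 and 29 on log2(deposited CPM + 1) and + 0.1, 30 with the length trend removed, and 5 to 154 with 1 library left out (XBP1-KO a 13, b 154, c 16, WT a 38, b 40, c 5). The median log2 fold change of the members was 0.067 without libraries b of both genotypes, and 0.093 to 0.23 in the other alternatives. The genes described in full kept their direction in all alternatives except Hmox1 and Gstm1. Hmox1 was -0.023 and -0.024 on the deposited CPM, -0.50 without libraries b and -0.029 with the length trend removed, and -0.86 to 0.40 with 1 library left out. Gstm1 was 0.082 with library size alone, 0.033 with upper quartile scaling, 0.034 on the deposited CPM with either pseudocount, and -0.41 to 0.21 with 1 library left out. The cause was not tested. Sizes moved more than directions. Removing the length trend lowered GPx4, Txn1, Gpx1, Ftl1, Fth1, Gsto1 and Mgst3 to 0.21, 0.16, 0.093, 0.10, 0.41, 0.21 and 0.19 (log2). Fth1 was 0.086 to 1.63 with 1 library left out. Each genotype has 3 libraries.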
